A study of Mus musculus with 8 samples.

Results

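Annexins and S100 proteins are families of calcium-binding proteins, many of which work at the inner face of the plasma membrane. Their transcripts were followed here in lung epithelial cells that lack the Hippo kinases Mst1 and Mst2. Expression was measured on single-colour arrays of biotin-labelled total RNA, and members were all genes whose symbol begins with Anxa or S100a and a digit, together with S100b, S100g, S100z and S100pbp. Where several probe sets carried the same symbol, the one with the highest mean over the 8 arrays was used, which is the only measured value in the rule. That rule found 30 of the 19938 genes measured, namely 12 annexins, 17 S100 genes and S100pbp, which encodes a binding partner of an S100 protein and is not itself an S100 protein. There were 4 arrays of control lungs and 4 of Mst1/2 knockout lungs, all from mouse embryos at stage E18.5, shortly before birth. In the knockout, Cre recombinase expressed from the Shh locus (ShhCre) removed both kinases from lung epithelial progenitors. The labels call the other group Control without giving its alleles, and they do not say whether an array stands for a single embryo or a pool. The labels do number the arrays of each group as biological replicates. If arrays nevertheless shared animals, the p-values would measure a spread that is partly technical. In both groups the cells had been released from the lung by mechanical and enzymatic dissociation and selected on magnetic beads for the epithelial surface protein Epcam. Stk4, the gene of Mst1, was 9.59, 9.84, 9.59 and 9.62 (log2) on the control arrays against 9.45, 9.44, 9.31 and 9.24 on the knockout arrays, a fall of 1.23-fold without overlap (limma, adjusted p = 0.0188). Whether its probes lie in the deleted part of the gene is not known here, and the gene of Mst2 was not analysed here.

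Annexins bind acidic phospholipids when calcium rises, and so link membranes to the cytoskeleton, to each other and to sites of membrane damage. S100 proteins are small proteins with a pair of EF-hand calcium-binding loops, and most of them form dimers. Many bind annexins or cytoskeletal proteins inside the cell, and some signal through receptors once released. In the alveolus, annexins are prominent in the thin gas-exchanging type 1 cell, whereas S100g, a cytosolic calcium buffer also known as a calbindin, is used as a marker of the surfactant-producing type 2 cell. Mst1 and Mst2 normally hold back the coactivators Yap and Taz, which reach DNA through TEAD factors.

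RefSeq (build GRCm38.p6) gave a promoter for 24 of the 30 members, and those without an entry were Anxa3, Anxa6, Anxa13, S100a2, S100a10 and S100a14. The sequences shown are, among the 24, the promoters of the 3 members with the largest differences between the groups (S100a6, Anxa1 and S100g) and of the member with the most TEAD cores (S100a7a). In each, the 250 bases before the start site were searched on both strands for the TEAD core (GGAATG, reverse complement CATTCC), the AP-1 site (TGANTCA) and the TATA box (TATAAA, reverse complement TTTATA), which share no match in the windows printed. Matches stand in capitals, and each sequence is written 5′ to 3′ on the strand of the gene. The windows are chr3:90612644-90612893 on the plus strand for S100a6, chr3:90654052-90654301 on the plus strand for S100a7a, chr19:20390672-20390921 on the minus strand for Anxa1, and chrX:162964600-162964849 on the minus strand for S100g.
S100a6: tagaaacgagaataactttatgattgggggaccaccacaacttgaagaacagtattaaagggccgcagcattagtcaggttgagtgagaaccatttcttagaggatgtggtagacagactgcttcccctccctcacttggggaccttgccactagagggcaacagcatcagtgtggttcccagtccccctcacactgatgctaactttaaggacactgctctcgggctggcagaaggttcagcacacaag
S100a7a: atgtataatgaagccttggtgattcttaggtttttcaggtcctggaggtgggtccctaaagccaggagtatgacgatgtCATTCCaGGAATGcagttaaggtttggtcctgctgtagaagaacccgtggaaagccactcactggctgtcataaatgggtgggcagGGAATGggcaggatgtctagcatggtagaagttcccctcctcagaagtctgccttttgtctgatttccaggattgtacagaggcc
Anxa1: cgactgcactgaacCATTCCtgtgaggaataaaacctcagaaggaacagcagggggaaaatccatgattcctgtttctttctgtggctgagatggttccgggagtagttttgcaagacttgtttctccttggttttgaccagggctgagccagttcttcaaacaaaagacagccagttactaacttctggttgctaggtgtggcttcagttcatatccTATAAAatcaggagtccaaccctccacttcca
S100g: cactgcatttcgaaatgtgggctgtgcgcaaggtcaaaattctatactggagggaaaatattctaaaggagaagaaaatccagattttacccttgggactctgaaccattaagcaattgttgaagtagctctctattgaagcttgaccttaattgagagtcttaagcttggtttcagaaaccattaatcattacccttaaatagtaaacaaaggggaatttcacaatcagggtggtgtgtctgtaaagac
A TEAD core was present in the windows of Anxa1, S100a3, S100a7a and S100z, that is in 4 of the 32 windows of these 24 genes (12.5%), and in 12.6% of all 32851 promoter windows. S100a7a held 3 of them, starting 171, 164 and 85 bases before the start site, and Anxa1 held 1, starting 236 bases before it. The AP-1 site was found in 4 of the 32 windows (12.5%), in S100a11, S100a16, Anxa2 and Anxa10, and in 6.75% of all windows. Anxa1 had a TATA box starting 32 bases before its start, and TATAAA or its complement was found in 6 of the 32 windows (18.8%) and in 12.4% of all windows. S100a6 and S100g held none of the 3 motifs in this window, which says only that these letters are not in these 250 bases.

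Members of both families rose in the knockout arrays, and S100g was the only member of the 30 that fell. Of the 12 annexins 6 rose, 0 fell and 6 did not pass in limma's test (adjusted p below 0.05 over all genes), with a median difference of 0.26. At an unadjusted p below 0.05, 1 annexin (Anxa6) was lower. In the S100 family 6 of 17 genes rose and 1 fell, while 10 did not pass, with a median difference of 0.10. S100pbp did not pass (0.06, SE 0.057). Differences are knockout minus control on the log2 scale, with 4 arrays in each group, and the median over all genes was -0.02. Of the 30 members 43.3% passed. Among all 19938 genes 18.8% passed in either direction, 8.60% higher and 10.2% lower, and 22.1% had groups whose arrays did not overlap. The members that passed were mostly bright: 12 of the 13 lay above the median level of all genes, where 28.4% of genes passed. In all 13 the control and knockout arrays did not overlap. The test favours such genes, so this adds no support of its own.

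**Figure D1:**
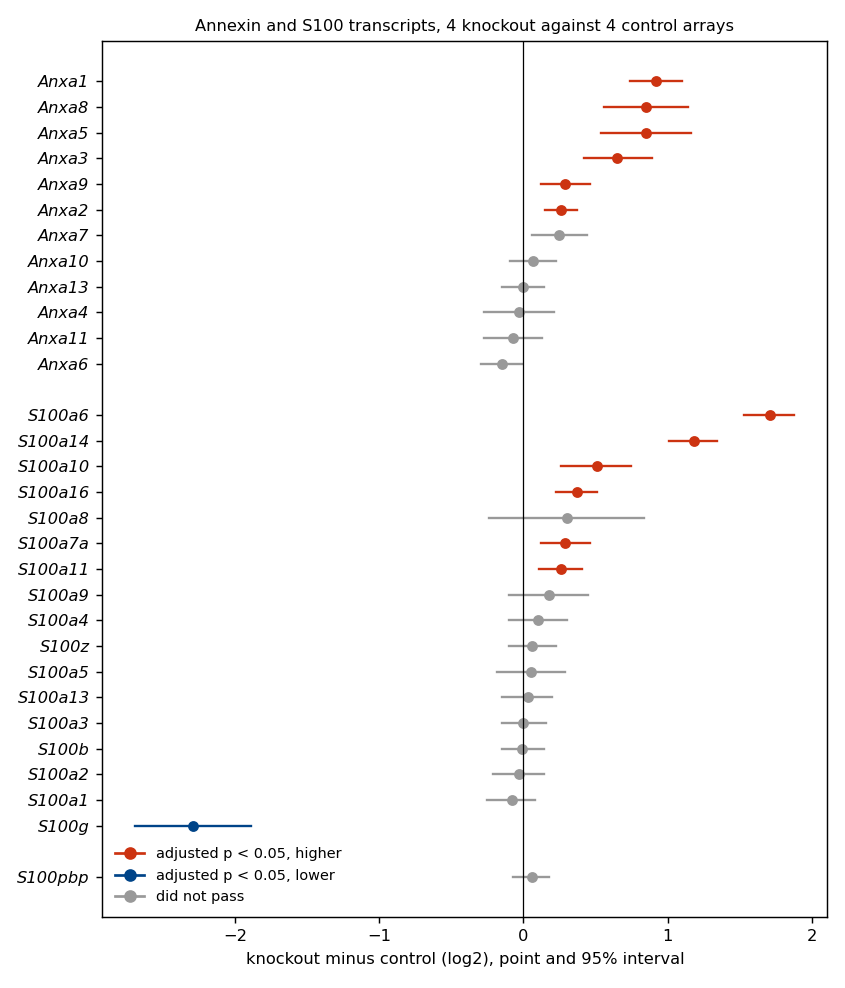
Difference between knockout and control arrays (log2, horizontal axis) for each of the 30 genes, with its 95% interval, grouped into annexins, S100 genes and S100pbp. S100a6 (1.71) and S100a14 (1.18) stand furthest to the right and S100g (-2.29) alone to the left.

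S100a6, also called calcyclin, is a small calcium sensor linked to cell proliferation, and it rose most of all members. Array values are log2 levels in the order of replicates 1 to 4 of each group, the control arrays first. S100a6 was 9.91, 9.73, 9.81 and 10 in control and 11.51, 11.46, 11.58 and 11.74 in knockout arrays. The lowest knockout array thus lay well above the highest control array, and the spread within each group was small (SD 0.12 in both). The difference was 1.71 (SE 0.080, 95% interval 1.53 to 1.88, adjusted p = 1.69e-06), a 3.26-fold rise and the 13th largest among all genes.

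S100a14, an S100 protein of epithelial cells with an altered calcium-binding loop, rose 2.26-fold. It was 8.54, 8.54, 8.52 and 8.67 in the control arrays and 9.81, 9.58, 9.88 and 9.70 in the knockout arrays, again far apart (1.18, SE 0.074, adjusted p = 7.92e-06). S100a16, its neighbour on the chromosome, rose less. S100a16 stood at 9.79, 9.66, 9.74 and 9.82 in control and 10.18, 10.20, 10.09 and 10.03 in knockout arrays (0.37, SE 0.063, adjusted p = 0.00186).

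S100a10 is the S100 protein that holds its active shape without calcium and pairs with annexin A2 at the membrane. It read 10.89, 11.21, 11.13 and 11.41 in control and 11.81, 11.71, 11.70 and 11.44 in knockout arrays, a rise of 1.42-fold (0.51, SE 0.11, adjusted p = 0.00870). Control replicate 4 and knockout replicate 4 nearly touched. With the mesenchymal or the mesothelial marker mean as a covariate the difference was 0.49 in both fits, but the adjusted p was 0.0755 and 0.0643.

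S100a11, which binds annexin A1, was 12.30, 12.16, 12.37 and 12.28 in control and 12.57, 12.48, 12.45 and 12.64 in knockout arrays (0.26, SE 0.068, adjusted p = 0.0219). A second probe set of the same symbol gave nearly the same difference (0.24, SE 0.070). It followed the first closely from array to array, so it is not counted as independent support. Because RefSeq lists a pseudogene of S100a11, the signal of S100a11 could include a near copy. S100a7a, a psoriasin-like protein of skin, was 7.51, 7.35, 7.53 and 7.63 against 7.82, 7.90, 7.64 and 7.80 (0.29, SE 0.078, adjusted p = 0.0245), with 0.01 between the highest control and the lowest knockout array. The calls of these 2 genes rested on few arrays. S100a11 no longer passed without control replicate 2 (adjusted p = 0.0584) or knockout replicate 1 (0.0568), and S100a7a no longer passed when control replicate 1, 2 or 3 or knockout replicate 1 or 2 was left out (adjusted p from 0.0523 to 0.0738).

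**Figure D2:**
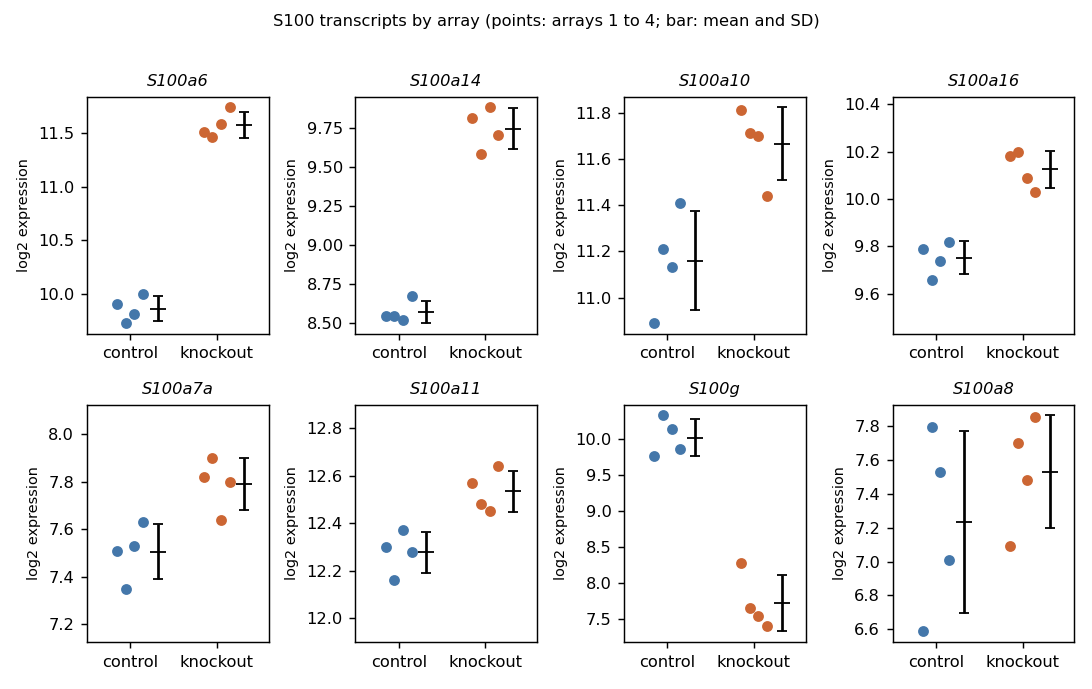
Log2 expression (vertical axis, a separate range in each panel) of the 7 S100 genes that passed the test and of S100a8, with a point for each array and a bar for the mean and SD of 4 arrays. S100a6 lies between 9.73 and 10 in control and between 11.46 and 11.74 in knockout arrays, while the S100a8 groups overlap.

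Of the 17 S100 genes 14 lie on chromosome 3 in the RefSeq annotation, and the genes that rose there were interspersed with genes that did not pass. In chromosome order the run begins with S100a1 (-0.08) and S100a13 (0.03), which overlap each other, goes on with S100a14 (1.18) and S100a16 (0.37), and then passes S100a3 (0.00), S100a2 (-0.03), S100a4 (0.10) and S100a5 (0.05) before it reaches S100a6 (1.71). S100a7a (0.29), S100a8 (0.30) and S100a9 (0.18) follow, and S100a11 (0.26) and S100a10 (0.51) close it. S100a6 and its neighbour S100a5 therefore had differences of 1.71 (SE 0.080) and 0.05 (SE 0.11). S100a2 lies within the span of S100a3, so their signals may not be fully separate.

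**Figure D3:**
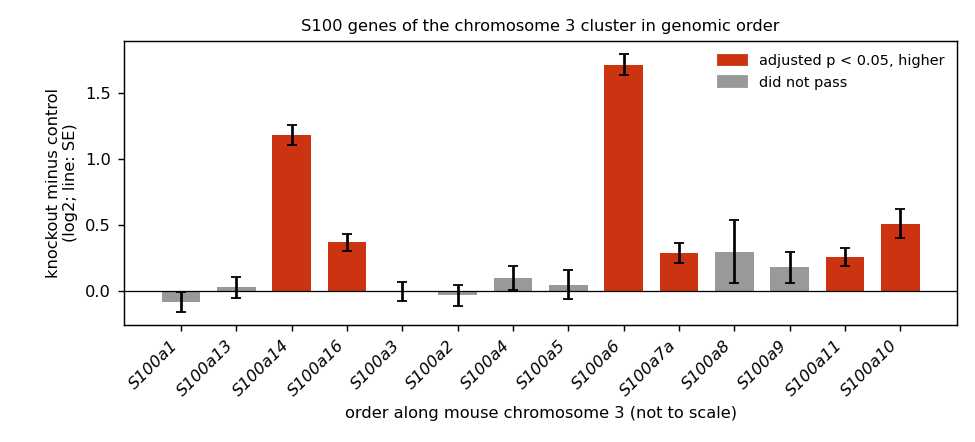
Difference between knockout and control arrays (log2, bar) with its standard error (line) for the 14 S100 genes of mouse chromosome 3, placed in genomic order and not to scale. The 4 genes from S100a3 to S100a5, which did not pass, lie between S100a16 (0.37) and S100a6 (1.71).

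The S100 genes that did not pass had differences between -0.08 and 0.30. S100a1, a regulator of calcium release and contractility, averaged 11.34 ± 0.13 (SD, n = 4) on control arrays and 11.26 ± 0.08 on knockout arrays (95% interval of the difference -0.25 to 0.08). S100a4, a protein of motile fibroblasts and other mesenchymal cells, was 6.51 ± 0.19 and 6.61 ± 0.08 (0.10, SE 0.091). S100b, known from glia, differed by -0.01 (SE 0.066), and 0 of the 5 measured glial markers passed in limma's test (1 at an unadjusted p below 0.05). The subunits of calprotectin, S100a8 and S100a9, are carried mainly by neutrophils and monocytes. S100a8 was 6.59, 7.79, 7.53 and 7.01 against 7.09, 7.70, 7.48 and 7.85, so the groups overlapped widely (0.30, SE 0.24, adjusted p = 0.479). S100a9 was 6.85, 7.26, 7.31 and 7.13 against 7.04, 7.36, 7.27 and 7.59 (0.18, SE 0.12, adjusted p = 0.403). The mean of 14 leukocyte markers was 8.89, 9.81, 9.42 and 9.16 in the control arrays and 9.35, 9.41, 9.42 and 9.76 in the knockout arrays. Control replicate 1 was lowest and control replicate 2 highest among control arrays in both S100a8 and this marker mean.

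Among the annexins, Anxa1, the glucocorticoid-induced annexin known for restraining inflammation, rose most. Its level was 10.66, 10.66, 10.59 and 10.91 in control and 11.61, 11.69, 11.71 and 11.48 in knockout arrays, a gap wider than either group's range (0.92, SE 0.082, adjusted p = 3.74e-05, 1.89-fold). Anxa8, an annexin of stratified and squamous epithelia, was 8.82, 8.44, 8.56 and 8.74 against 9.73, 9.62, 9.52 and 9.11, a rise of 1.81-fold (0.85, SE 0.13, adjusted p = 9.81e-04). Anxa5, whose protein is the familiar probe for exposed phosphatidylserine, was 11.02, 11.14, 10.76 and 11.35 against 12.17, 12.01, 11.92 and 11.57, a rise of 1.80-fold (0.85, SE 0.14, adjusted p = 0.00172). In Anxa1, Anxa8 and Anxa5, knockout replicate 4 was the knockout array nearest to the controls.

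Anxa3, an annexin of lung and neutrophils, rose 1.57-fold from 11.69, 11.49, 11.17 and 11.67 in control to 12.25, 12.12, 12.19 and 12.07 in knockout arrays (0.65, SE 0.11, adjusted p = 0.00154). Anxa2, the partner of S100a10, rose by a small but even step. It was 12.00, 12.02, 12.00 and 12.07 in control and 12.31, 12.29, 12.26 and 12.28 in knockout arrays (0.26, SE 0.050, adjusted p = 0.00398). Anxa9, an atypical annexin with impaired calcium binding, was 6.52, 6.36, 6.56 and 6.54 against 6.91, 6.61, 6.77 and 6.84 (0.29, SE 0.077, adjusted p = 0.0246). The call of Anxa9 ended without control replicate 2 (adjusted p = 0.0650), knockout replicate 1 (0.0688) or knockout replicate 3 (0.0580), and its level lay below the median of all genes.

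**Figure D4:**
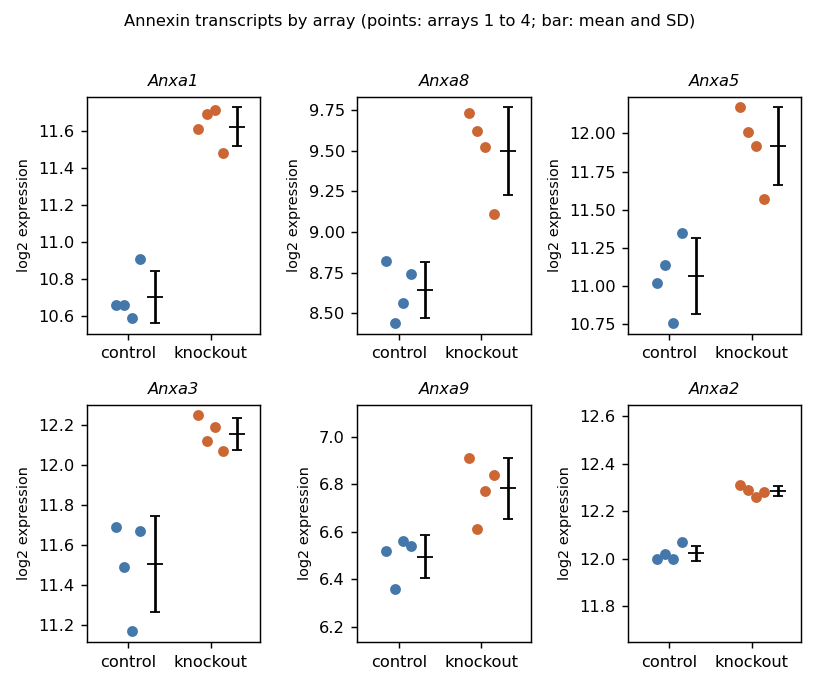
Log2 expression (vertical axis, a separate range in each panel) of the 6 annexins that rose, with a point for each array and a bar for the mean and SD of 4 arrays. The groups do not overlap in any panel, and knockout replicate 4 is the lowest knockout array of Anxa1, Anxa8, Anxa5 and Anxa3.

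The other annexins had differences from -0.15 to 0.25. Anxa7, or synexin, which promotes membrane fusion, came closest to the threshold at 8.45, 8.41, 8.39 and 8.73 in control and 8.77, 8.78, 8.82 and 8.59 in knockout arrays (0.25, SE 0.086, adjusted p = 0.0704). It passed without control replicate 4 (0.33, adjusted p = 0.0116) or knockout replicate 4 (0.30, adjusted p = 0.0303), whose values overlap. Anxa6, the large annexin with a duplicated core, averaged 10.51 ± 0.10 (SD, n = 4) on control arrays and 10.36 ± 0.04 on knockout arrays (-0.15, SE 0.062, adjusted p = 0.127), and its second probe set gave -0.09 (SE 0.095). Anxa4, of secretory epithelia, was 10.88 ± 0.13 and 10.85 ± 0.22 (95% interval of the difference -0.27 to 0.21), and Anxa11, which tethers RNA granules to lysosomes, 10.06 ± 0.10 and 9.99 ± 0.17 (-0.27 to 0.13). Anxa10 (0.07, SE 0.072) and Anxa13 (-0.00, SE 0.064), annexins of stomach and intestine, both lay below the median level of all genes.

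In the main fit both members of each annexin and S100 pair that was followed rose. Anxa2 and S100a10 differed by 0.26 and 0.51, and Anxa1 and S100a11 by 0.92 and 0.26. S100a10 and S100a11 no longer passed in limma's test with the mesenchymal (adjusted p = 0.0755 and 0.155) or mesothelial (0.0643 and 0.140) mean as a covariate. With the endothelial mean they did not pass either (0.644 and 0.558), nor did Anxa2 (0.437). Their differences stayed positive in these fits. Within the Anxa2 pair the array values of Anxa2 were tight (SD 0.03 and 0.02), whereas S100a10 ranged from 10.89 to 11.41 in control and from 11.44 to 11.81 in knockout arrays.

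S100g, the calcium buffer that ferries calcium through absorbing epithelia, was lower in every knockout array. It was 9.76, 10.32, 10.13 and 9.85 in control but 8.28, 7.66, 7.54 and 7.41 in knockout arrays, with knockout replicate 1 nearest to the controls. The fall was 4.89-fold (-2.29, SE 0.18, 95% interval -2.69 to -1.89, adjusted p = 1.92e-05), the 21st deepest of all genes. Beside it, 18 of 20 type 2 cell markers (a list that leaves out S100g) were lower (90.0% passed, against 18.8% of all genes). The mean of the 20 was 12.29 to 12.48 in control and 11.63, 11.32, 11.40 and 10.96 in knockout replicates 1 to 4. All 20 lay above the median level, where 28.4% of all genes passed. Sftpc (-0.05, SE 0.051) and Ctsh (-0.22, SE 0.10), named after their values were seen, did not pass. In a bulk sample fewer cells of a type and less RNA per cell cannot be told apart, and the part of type 2 cell number in the fall of S100g was not tested.

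S100g was set beside other genes that handle calcium. Among 21 measured calcium channels, pumps, exchangers and the vitamin D receptor, 8 fell, 1 rose and 12 did not pass (42.9% passed, against 18.8% of all genes), with a median difference of -0.11. Of the 21, 16 lay above the median level, where 28.4% of all genes passed. Trpv6, the apical calcium channel, was 9.16, 9.30, 9.14 and 8.76 in control and 7.87, 7.55, 7.67 and 7.30 in knockout arrays (-1.49, SE 0.13, adjusted p = 4.04e-05). Vdr, the vitamin D receptor, was 8.28, 8.51, 8.60 and 8.34 against 7.33, 7.46, 7.33 and 7.57 (-1.01, SE 0.085, adjusted p = 2.56e-05). In both genes all knockout arrays lay below all control arrays, with no overlap. Atp2c2, a calcium and manganese pump of the secretory pathway, fell by 0.90 (SE 0.078, adjusted p = 3.17e-05). Atp2b1, the plasma membrane calcium pump of absorbing epithelia, named after its values were seen, did not pass (0.14, SE 0.067, adjusted p = 0.191). Trpv5, the close relative of Trpv6, was named after its values were seen and fell by 0.27 (SE 0.065, adjusted p = 0.0154). Trpv5 no longer passed when knockout replicate 3 was left out (adjusted p = 0.0539). Trpv5 and Atp2c2 lay below the median level of all genes. The member that rose was Slc24a3, a sodium, potassium and calcium exchanger also named after its values were seen (0.51, SE 0.13, adjusted p = 0.0208), which no longer passed without control replicate 3 (0.0673) or knockout replicate 1 (0.0553).

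**Figure D5:**
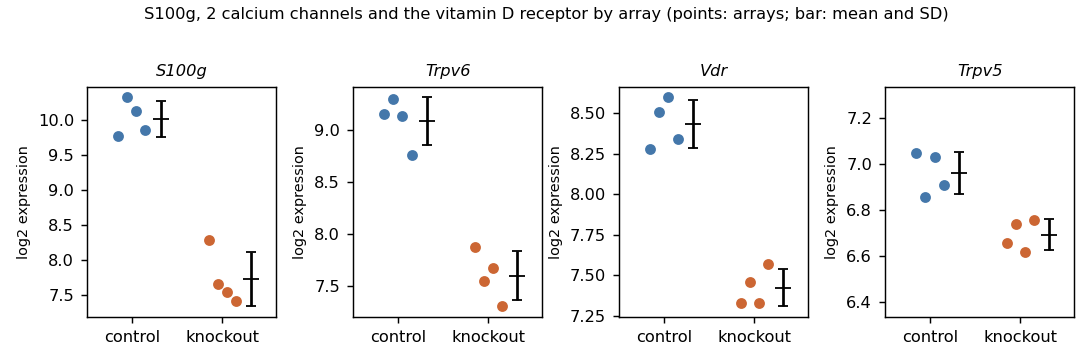
Log2 expression (vertical axis, a separate range in each panel) of S100g, Trpv6, Vdr and Trpv5, with a point for each array and a bar for the mean and SD of 4 arrays. All knockout arrays lie below all control arrays in each panel, and S100g spans 9.76 to 10.32 in control and 7.41 to 8.28 in knockout arrays.

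Binding partners, receptors and regulators of the 2 families moved in both directions. Among 29 measured, 11 rose, 4 fell and 14 missed the threshold (51.7% passed, against 18.8% of all genes), with a median difference of 0.16. Of the 29, 24 lay above the median level, where 28.4% of all genes passed. Myof, a ferlin that repairs and fuses plasma membrane, rose by 0.68 (SE 0.058), and Tgm2, a calcium-activated transglutaminase, rose by 0.91 (SE 0.082, adjusted p = 4.21e-05). Ahnak, the giant scaffold bound by the Anxa2 and S100a10 complex, was 10.43, 10.34, 10.35 and 10.58 in control and 11.04, 11, 11.02 and 10.87 in knockout arrays (0.56, SE 0.070, adjusted p = 2.83e-04). Plat, the tissue plasminogen activator that this complex binds at the cell surface, rose by 0.42 (SE 0.13, adjusted p = 0.0405), but its groups overlapped slightly, with 7.06 as the highest control and 7.05 as the lowest knockout value. It no longer passed when control replicate 1 or 2 or knockout replicate 2, 3 or 4 was left out (adjusted p from 0.0655 to 0.0976). Plat also lay below the median level of all genes.

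Receptors of released S100 proteins differed in direction. Ager, the receptor RAGE and a type 1 cell marker, was 12.55, 12.48, 12.41 and 12.54 in control and 12.81, 12.78, 12.72 and 12.62 in knockout arrays (0.24, SE 0.062). Ager no longer passed when control replicate 3 or knockout replicate 1, 2 or 3 was left out (adjusted p from 0.0520 to 0.0648). Tlr4, the receptor of calprotectin, was named after its values were seen and was lower (-0.53, SE 0.12, adjusted p = 0.00874). Its call ended with the mesenchymal (0.0758), mesothelial (0.0595) or endothelial (0.622) marker mean as a covariate and without knockout replicates 1 and 4 together (0.0614). Tlr4 also lay below the median level of all genes. Capn2, a calpain protease (0.64, SE 0.090), and Pdcd6, an EF-hand protein that binds Anxa7 and Anxa11 (0.37, SE 0.053), rose and were also named after their values were seen.

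The fused-type S100 and cornified envelope genes, most of which sit beside the S100 genes or act in squamous barriers, moved in both directions. Of 16 measured 4 rose, 1 fell and 11 did not pass (31.2% passed, against 18.8% of all genes), with a median of 0.04. Of the 16, 4 lay above the median level, where 28.4% of all genes passed. Evpl and Ppl, the envelope plakins, rose by 0.53 (SE 0.065) and 0.43 (SE 0.075), while Ivl, involucrin, fell by 0.68 (SE 0.098, adjusted p = 6.68e-04). Ivl, the only gene of this list that fell, lay below the median level of all genes. Cnfn, cornifelin, named after its values were seen, was 7.86, 7.53, 7.77 and 7.49 in control and 7.92, 9.08, 8.67 and 8.68 in knockout arrays, with knockout replicate 1 at the control level (0.92, SE 0.20). Of 21 other EF-hand calcium binders 2 rose, 2 fell and 17 did not pass, with a median of 0.01, and the share that passed (19.0%) was near that of all genes (18.8%). There Calm2, a calmodulin gene, rose by 0.37 (SE 0.055), and Mcfd2, a cargo receptor subunit, fell by 0.38 (SE 0.060). Efhd1, a mitochondrial calcium sensor with a level below the median of all genes, rose by 0.55 (SE 0.10).

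Some markers of other cells moved with the comparison, and several annexin and S100 genes are also expressed in those cells. All 10 epithelial markers lay above the median level of all genes, and Epcam itself differed by 0.01 (SE 0.097). Of the 10, 2 rose and 1 fell, namely the keratins Krt19 (0.62, SE 0.086) and Krt8 (0.27, SE 0.079) and the transcription factor Elf3 (-0.72, SE 0.094), all named after their values were seen. Of 10 endothelial markers 5 rose and 0 fell (limma; 0 also at an unadjusted p below 0.05), and their mean was 9.08 to 9.40 in control and 9.47 to 9.53 in knockout arrays, without overlap. Of 15 mesenchymal markers 4 rose and 0 fell, again 0 unadjusted (mean 8.28 to 8.72 against 8.55 to 9.02). Of 5 mesothelial markers 1 rose (8.66 to 9.10 against 8.94 to 9.44). Among all genes 18.8% passed, and among those above the median level 28.4%. All 10 endothelial, 10 mesenchymal and 4 mesothelial markers lay above that level. The mesenchymal share (26.7%) and the epithelial and mesothelial counts were thus near those of all genes, and the endothelial count was higher. Of 12 neutrophil markers 0 passed in limma's test, and 2 had an unadjusted p below 0.05. With the mesenchymal mean as a covariate 5 annexins and 3 S100 genes rose, with the mesothelial mean likewise 5 and 3, and with the endothelial mean 1 and 2. Those that still rose with the endothelial mean were Anxa1 (0.68, adjusted p = 0.0463), S100a6 (1.46, adjusted p = 0.00257) and S100a14 (1.03, adjusted p = 0.0137), and S100g still fell (-1.83, adjusted p = 0.0276). The other members that had risen kept positive differences there, among them Anxa8 (0.75, adjusted p = 0.249), Anxa5 (0.55, 0.472), Anxa3 (0.32, 0.566), Anxa2 (0.22, 0.437), S100a10 (0.35, 0.644) and S100a16 (0.30, 0.354). Of the partner, envelope, EF-hand and calcium transport genes named as risen or fallen, Myof, Trpv6, Vdr and Atp2c2 still passed with the endothelial mean. With the mesenchymal mean Plat, Tlr4, Cnfn, Efhd1, Trpv5 and Slc24a3 no longer passed (adjusted p from 0.0635 to 0.417). The endothelial and mesothelial covariates were chosen after the data had been seen. With that covariate 98 of all genes rose and 215 fell, against 1715 and 2031 without it. Type 1 cell markers were higher too, with 16 of 20 risen, against 8.60% of all genes. Their mean was 11.14 to 11.33 in control and 11.67 to 11.87 in knockout arrays. Each of the 20 lay above the median level, where 28.4% of genes passed. Igfbp2 rose most (2.35, SE 0.065). Cldn18 (-0.06, SE 0.087), Cav1 (0.14, SE 0.083), Timp3 (0.15, SE 0.079) and Emp2 (0.19, SE 0.060) did not pass, and they were picked out with their values known. The part of the type 1 cells in the rise of the annexins was not tested.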

How the data were processed

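RNA of Epcam-selected lung cells was measured on 8 single-colour arrays, 4 control and 4 knockout. The authors deposited 1 table of values for 35556 probe sets. Their log2 scale was read from the range of the deposited values, and the normalization behind it is not given in the sources used here. Array medians lay between 7.21 and 7.30, and no further scaling was applied, so a change in total RNA per cell would not show. The arrays hold no counts, and their number limits the precision. Symbols came from the platform annotation in GEO. Of the probe sets 21789 had 1 symbol, 1621 several and 12146 none given. All 30 members matched RefSeq (GRCm38.p6) by gene number.

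The groups were fitted over 19938 genes with limma (version 3.58.1, R 4.3.3; lmFit, then eBayes), two-sided, with p-values adjusted by Benjamini-Hochberg and a threshold of 0.05. The fit was checked on simulated data with independent noise and few changed genes. Such data cannot show how the fit behaves where arrays share deviations or many genes change. Errors of differences are moderated standard errors, and those of means are SDs over 4 arrays. No set test was run. Lists are described by counts and medians. The members and lists were chosen with earlier results of these data known. Array values were given for the 6 largest rises and falls among members that passed, for known annexin and S100 pairs, and for S100a6 and S100g. Those of S100a16, S100a7a, Anxa9 and Anxa7 were added after their values were seen. Of each context list the 3 members with the smallest p were named, with Ager, Plat, Ahnak and Trpv6. Genes outside this rule are marked as named after their values were seen, apart from the sorting marker Epcam. The labels do not say whether equal replicate numbers pair the arrays, and the main fit used no pairing. The deviations of same-numbered arrays from their group means correlated at 0.06, 0.10, -0.08 and 0.04. Those of differently numbered arrays correlated at -0.34 to 0.36. Such correlations cannot show whether arrays were paired. The alternatives tried were 17 fixed with the design and 2 chosen after seeing the data, the endothelial and mesothelial marker means as covariates.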

Additional observations from a re-analysis of the deposited data

Results flagged for a closer look

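S100a14 in control replicate 4 was at 8.67, where the other 3 control arrays lay at 8.52 to 8.54, a gap that is large for a group of 4. It was the only such array in 60 groups of member values examined, and chance alone sets apart about 1 in 20. Every knockout array of S100a14 lay above it, at 9.58 or higher.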

How the results depend on the processing

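S100a6, S100a14, Anxa1 and S100g kept their direction and their side of the threshold under all 19 alternatives, with differences of 1.46 to 1.75, 1.03 to 1.23, 0.68 to 1.00 and -2.47 to -1.83. Array centring, quantile normalization and an intensity trend changed no count of members by over 1.5 times and shifted the median of all genes by at most -0.01. The replicate number as a block left 6 annexins and 6 S100 genes risen and 1 S100 gene fallen. Among calcium transport genes the block gave 2 risen instead of 1, and it moved no other count past 1.5 times. Among genes above the median level, 2 partner genes fell, 0 cornified envelope genes fell and 1 EF-hand gene rose, where fewer genes were tested. Without knockout replicates 1 and 4 together, 2 partner genes fell and 0 calcium transport genes rose. For the other shifts the cause was not tested.

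The leukocyte marker mean as a covariate moved no count by over 1.5 times (7 annexins and 6 S100 genes rose), whereas the other 3 marker means moved several. With the mesenchymal mean 3 S100 genes rose, and over all genes 893 rose and 1106 fell. There 0 partner genes fell, 2 cornified envelope genes rose, 1 EF-hand gene rose and 1 fell, and 0 calcium transport genes rose and 5 fell. With the mesothelial mean 3 S100 genes rose, 937 genes in all rose and 1223 fell, 7 partner genes rose and 1 fell, 2 cornified envelope genes rose, 1 EF-hand gene fell and 0 calcium transport genes rose. With the endothelial mean, which separates the groups itself, 1 annexin and 2 S100 genes rose, and 98 genes in all rose and 215 fell. In that fit 1 partner gene rose and 0 fell, 0 cornified envelope genes rose or fell, 0 EF-hand genes rose or fell, and 0 calcium transport genes rose and 3 fell. The counts of 0 are from limma at the adjusted threshold. At an unadjusted p below 0.05 the same counts were 0 for the level filter, 1 without both knockout replicates, 4 partner genes fallen and 1 calcium transport gene risen with the mesenchymal mean, 1 calcium transport gene risen with the mesothelial mean, and 0 to 2 with the endothelial mean.

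Leaving out single arrays gave 5 to 7 risen annexins, 4 to 6 risen S100 genes and 1 fallen S100 gene. It gave 7 (without knockout replicate 3) to 12 risen partner genes, 2 to 4 (without control replicate 4) risen and 1 (without knockout replicate 3) to 3 fallen EF-hand genes, and 0 (without control replicate 3 or knockout replicate 1) to 1 risen calcium transport genes (3 at an unadjusted p below 0.05 where limma's adjusted count was 0). S100 members dropped to 4 without control replicate 2 or knockout replicate 1. The arrays give no depth. For Anxa10, Anxa13, the other members below the median level and S100a7a near it, how far the signal lay above background is not known. The same holds for Plat, Tlr4, Ivl, Efhd1, Atp2c2 and Trpv5.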
